A study of Mus musculus with 8 samples.

Results

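Replication-dependent histone genes lie in clusters and encode the linker histone H1 and the core histones H2A, H2B, H3 and H4. Members were the genes whose symbol begins with Hist1h, Hist2h, Hist3h or Hist4h and whose biotype is protein coding, which gave 67 of the 41457 genes in the tables, with 6 H1, 18 H2A, 18 H2B, 12 H3 and 13 H4 genes. Of these, 54 lie in the Hist1 cluster on chromosome 13, 10 in the Hist2 cluster on chromosome 3, 2 in the Hist3 cluster on chromosome 11 and 1, Hist4h4, on chromosome 6. Their RNA was measured by poly(A) RNA-seq in keratinocytes (KCs), the epithelial cells of the epidermis, from the tails of adult wild type C57BL/6 mice (C57BL/6J in the study's text), which were grown untreated in serum-free medium with 0.06 mM calcium and split when nearly confluent. KCs cultured for 1 week (4 samples) were compared with KCs cultured for 3 weeks (4 samples), from 4 independent experiments according to the labels, so that time in culture, splitting and cell density cannot be told apart. The study states that the same batches of KCs supplied both times. A number in the deposited names, taken here as the preparation, occurs at both times for 3 preparations (6 samples), and the other 2 samples have no partner. The main test did not pair the samples, and a fit blocked on the shared preparations is given where it ended a call or moved a value by over 1.5 times. Whether a sample held cells of 1 or several mice is not given in the sources used here, and p-values therefore measure the spread between these samples.

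Replication-dependent histones are made in S phase, when new DNA has to be packed into nucleosomes. Their mRNAs normally end, without a poly(A) tail, just behind a short stem-loop that is bound by the stem-loop binding protein SLBP, and they decay when DNA synthesis stops. Some of the genes are also known to give polyadenylated transcripts that run past the stem-loop in cells that have left the cycle. Selection for poly(A) tails enriches such transcripts and loses the tailless ones, so the reads describe the RNA captured by that selection and not the whole pool of histone mRNA.

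The stem-loop was searched in the annotated transcripts of all members, after the stop codon on the sense strand, as the letters GGNNCTTTTNAGNGNC. It was found in 42 of the 67 members, 21 to 58 bases (median 31) behind the stop codon. The same letters, searched here over the whole protein-coding transcript and not only after the stop codon, occurred in 19 of 21834 other protein-coding genes (0.087%). The 42 stem-loops had 5 distinct sequences, of which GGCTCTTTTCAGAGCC was carried by 26 members, and the variant with a CCC and GGG stem by 9 H4 genes. The stem-loops are given 5′ to 3′ in capitals with the neighbouring transcript bases, first for 3 members whose annotated transcript stops shortly after the stem-loop, which differ in direction of change, then for 3 members whose transcript continues for 840 to 2010 bases, and last for 4 tested members that carry 1 each of the other 4 sequences.
Hist1h2ap: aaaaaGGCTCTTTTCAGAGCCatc
Hist1h2ab: acaaaGGCTCTTTTCAGAGCCacccacatc
Hist1h3b: ccaaaGGCTCTTTTCAGAGCCacccacagt
Hist1h1c: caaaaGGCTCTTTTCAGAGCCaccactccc
Hist1h2be: ccaaaGGCTCTTTTCAGAGCCacccaacag
Hist1h2ac: ccaaaGGCTCTTTTCAGAGCCcccactttt
Hist2h2ac: aaaaaGGCTCTTTTTAGAGCCaccaaatct
Hist1h3c: aaaaaGGCTCTTTTAAGAGCCacctaagat
Hist1h4h: ccaaaGGCCCTTTTCAGGGCCgcccacatt
Hist1h4i: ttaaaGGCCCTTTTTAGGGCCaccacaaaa
The core of the stem-loop was thus identical in Hist1h2ap, which was lower at 3 weeks, and in Hist1h2ab, Hist1h3b, Hist1h1c, Hist1h2be and Hist1h2ac, which were higher. Annotated transcripts ended 3 to 74 bases behind the stem-loop in 21 members and 151 to 4884 bases (median 770) behind it in 21 others. No stem-loop was found in the remaining 25, and in 15 of these the annotated transcript ends within 5 bases of the stop codon, so that it leaves no room for a stem-loop.

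The libraries held 13896807 to 20026084 exon reads, of which 81.6% to 84.7% were unique to 1 place in the genome. Members received 125 to 311 reads per 1000000 exon reads (RPM) at 1 week and 306 to 372 at 3 weeks. Only 34.6% to 45.9% of the members' reads at 1 week and 60.8% to 69.4% at 3 weeks were unique. Many members share stretches of this read length with other genes, and the split of such reads between them is uncertain. In bulk samples, fewer cells that express a gene and less RNA per cell cannot be told apart. The keratinocyte markers were high throughout, with summed RPKM (reads per kilobase of exon and 1000000 mapped reads) of the 9 markers between 12528 and 14786 at 1 week and between 7538 and 8702 at 3 weeks, and 2 of the 9 were lower at 3 weeks. Summed RPKM of the 7 fibroblast markers stayed at or below 6.32, of the 5 immune markers at or below 1.62 and of the 4 endothelial markers at or below 0.559, with the immune marker Cd207 at 0 reads. The 6 melanocyte markers summed to 3.25 to 20.997 RPKM at 1 week and 1.28 to 5.60 at 3 weeks, with Pmel called lower, and the 3 Merkel cell markers to at most 0.0537 and then 0.283 to 0.529. The part of these shifts in the histone results was not tested.

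Histone cluster genes moved in opposite directions, with 17 of the tested members higher at 3 weeks and 4 H2A genes lower. Of these 4, Hist1h2ap and Hist1h2ah were assigned many reads at 1 week, almost none of them unique in Hist1h2ah. Hist1h2ai and Hist1h2an were assigned few. Of the 67 members, 23 had enough reads to be tested, 17 were higher and 4 lower at 3 weeks (edgeR quasi-likelihood test, adjusted p under 0.05), and 2 were not called. Among all 12590 genes tested, 32.8% were called, 15.7% as higher and 17.0% as lower. The median log2 fold change (3 weeks over 1 week) of the 23 members was 1.76, against 0.03 over all genes tested. Members with few reads that passed the filter through their reads at 3 weeks had to be higher there, so these figures describe the members with enough reads and not the family. With no filter 66 members were tested, 19 were higher and 7 lower, and their median was 0.90, against 0.05 over all genes. With the preparation block, 12 members were higher and 3 lower. RPKM values of the 2 groups did not overlap in 16 of the 17 members called higher, and 10.8% of all tested genes were higher without overlap. The groups did not overlap in the 4 members called lower either, and 26.2% of all tested genes were lower without overlap. The direction of calls over all genes depended on the scaling: limma on log2(RPKM + 0.1) called 1313 genes up and 3089 down, in place of 1981 and 2146. On that scale the median of all genes was -0.16 and that of the 23 members 1.48, and 17 members were again higher and 4 lower. All 4 members called lower were H2A genes, and the 17 called higher came from all 5 classes. Of the 4, Hist1h2ai and Hist1h2an had few or no reads at 3 weeks and passed the filter through 1 week, so they had to be lower.

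**Figure D1:**
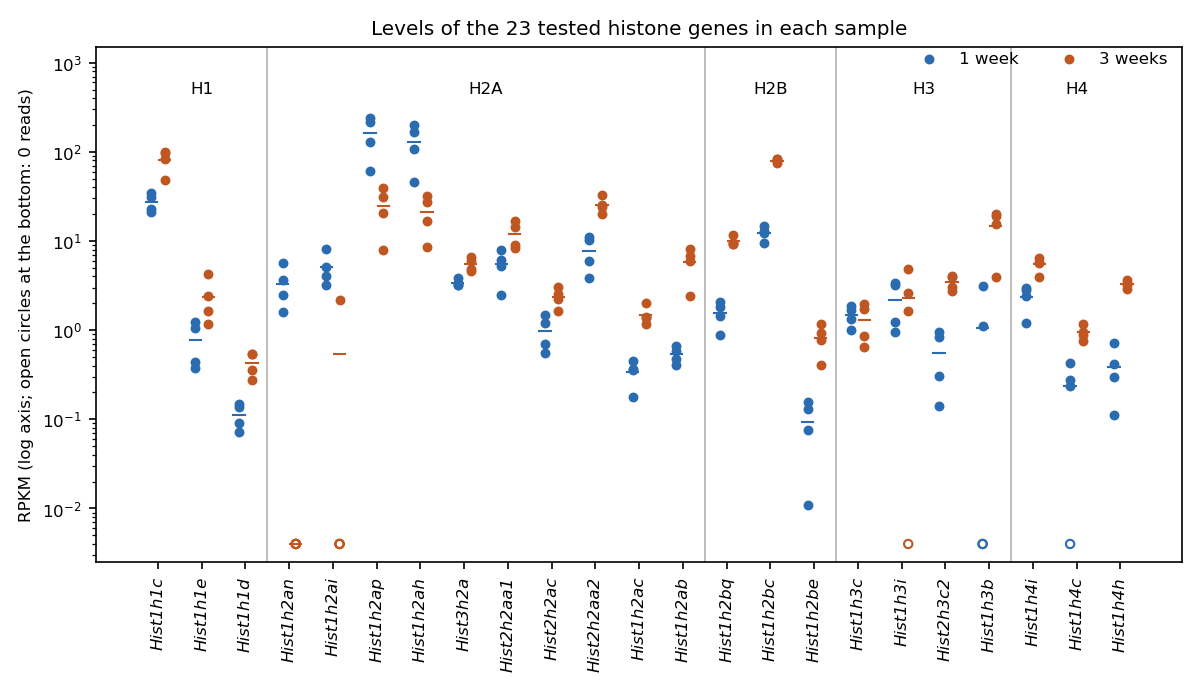
RPKM (log axis) of the 23 tested histone genes in each of the 4 samples at 1 week (blue) and at 3 weeks (orange), by class, with the mean as a short line and samples with 0 reads as open circles at the bottom. Hist1h2ap and Hist1h2ah lie highest at 1 week and below all 1 week samples at 3 weeks, whereas Hist1h1c and Hist1h2bc reach up to 98.9 and 83.4 RPKM at 3 weeks.

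The most abundant member at 1 week, Hist1h2ap (chr13:21833026-21833507, GRCm38, minus strand, 1 exon), encodes a canonical H2A, which pairs with H2B in the nucleosome. In replicates 1 to 4 at 1 week its RPKM values were 129.7, 61.0, 215 and 239.7. At 3 weeks they were 20.5, 31.6, 38.9 and 7.91. Every sample at 3 weeks lay below every sample at 1 week. The mean fell from 161 ± 81.9 to 24.7 ± 13.5 RPKM (SD, n = 4 each), a log2 fold change of -2.51 ± 0.56 (SE; edgeR adjusted p = 0.00899). Of the reads assigned to Hist1h2ap, 32.1% were unique, and with unique reads alone the log2 fold change was -2.74 (edgeR adjusted p = 0.00481, with 1.42e-05 to 0.0300 over all alternatives). With the preparation block it was -3.30. Reads of the length used here, 59 bases, can start at 424 places in its transcript, and at 394 of these (92.9%) the sequence is also present in Hist1h2ao. Hist1h2ao itself received at most 8 reads in a sample.

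Hist1h2ah (chr13:22035164-22035568), a second canonical H2A gene, gave RPKM values of 106, 46.2, 165 and 198 at 1 week. At 3 weeks the values were 16.6, 27.6, 32.0 and 8.57. The ordering of the samples was that of Hist1h2ap, and the groups did not overlap. The log2 fold change was -2.41 ± 0.53 (SE; edgeR adjusted p = 0.00851), and -3.13 with the preparation block. However, only 0.0481% of the reads assigned to Hist1h2ah were unique, 2 of 3581 at 1 week and 0 of 573 at 3 weeks. Of its 347 windows of 59 bases, 319 also lie in other genes. Hist1h2ah holds 243 of the windows of Hist1h2ap, and the ratio of Hist1h2ah to Hist1h2ap reads was 0.635 to 0.911 in the 8 samples. Its values therefore follow reads that could belong to other H2A genes. Both genes together took 39.6% to 65.2% of all reads of histone cluster genes at 1 week and 2.06% to 10.7% at 3 weeks.

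The other members called lower, Hist1h2an and Hist1h2ai, are further canonical H2A genes whose annotated transcripts consist of coding sequence only. Both passed the filter through their reads at 1 week, so they had to be lower at 3 weeks. Hist1h2an received 27, 20, 9 and 39 reads at 1 week and no read in any sample at 3 weeks. With 3 reads per library taken as the limit of detection, its mean at 1 week was at least 7.16-fold that at 3 weeks (edgeR adjusted p = 0.00302). Hist1h2ai received 38, 26, 46 and 28 reads at 1 week. At 3 weeks, 16 reads fell in replicate 1 and none in the others. Its log2 fold change was -2.93 ± 0.98 (SE; edgeR adjusted p = 0.0477), and the call was lost when any 1 library other than replicate 1 at 3 weeks was left out, with edgeR, DESeq2 or limma adjusted p of 0.00339 to 0.109 over the alternatives, of which the preparation block gave 0.0707. The fold itself rested on that library: without replicate 1 at 3 weeks the value was -8.03, against 0 reads and therefore no estimate of size, and without any 1 other library it was -3.11 to -2.53. Of their reads, 2.11% and 10.4% were unique, and 268 of the 335 windows of Hist1h2an also lie in Hist1h2ah, so the values of both genes follow reads that could belong to other H2A genes.

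Among the genes for linker histone H1, which binds the DNA between nucleosomes, Hist1h1c (chr13:23738808-23740367, plus strand, 1 exon) was by far the most abundant. Its RPKM values were 22.9, 21.2, 34.7 and 31.4 at 1 week. At 3 weeks they were 98.9, 83.2, 48.2 and 96.4, lowest in replicate 3. All samples at 3 weeks lay above those at 1 week. The mean rose from 27.5 ± 6.51 to 81.7 ± 23.4 RPKM (SD, n = 4 each), a log2 fold change of 1.72 ± 0.23 (SE; edgeR adjusted p = 0.0009). Of its reads, 94.3% were unique, and the log2 fold change with unique reads alone was 1.68. Hist1h1d and Hist1h1e encode further H1 variants and were much weaker, with mean RPKM at 3 weeks of 0.428 ± 0.131 and 2.36 ± 1.35 (SD). Hist1h1d rose by a log2 fold change of 2.08 ± 0.33 (edgeR adjusted p = 0.00188). Hist1h1e rose by 1.76 ± 0.50 (edgeR adjusted p = 0.0244) with overlapping groups, and its call was lost without replicate 1 or replicate 2 at 1 week or replicate 1 at 3 weeks. Hist1h1e overlaps Hist1h2be on the same strand. The other H1 genes, Hist1h1a, Hist1h1b and the testis variant Hist1h1t, received at most 8 reads in a sample.

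Hist1h2bc (chr13:23684199-23692908, plus strand, 2 exons), which encodes an H2B, had the lowest adjusted p of all members. Its RPKM values were 12.3, 9.53, 14.9 and 12.9 at 1 week. At 3 weeks the values were 74.6, 78.8, 83.1 and 83.4. The gap between the groups was several times the spread within either. The mean rose from 12.4 ± 2.21 to 80.0 ± 4.15 RPKM (SD, n = 4 each), with a log2 fold change of 2.86 ± 0.17 (SE; edgeR adjusted p = 0.000139) and of 2.91 with unique reads, which were 77.5% of its reads. Hist1h2bc and Hist1h1c together held 21.3% to 36.3% of the reads of histone cluster genes at 1 week and 57.8% to 70.0% at 3 weeks.

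Hist1h2bc starts 250 bases from Hist1h2ac (chr13:23681467-23683948), an H2A gene on the opposite strand, in the head-to-head arrangement of an H2A and an H2B gene that is typical of these clusters. Of 13 divergent pairs of members, 175 to 659 bases apart and 12 of them of an H2A and an H2B gene, this was the only pair in which both genes were tested. Hist1h2ac values were 0.360, 0.176, 0.365 and 0.457 RPKM at 1 week. They were 1.36, 2.01, 1.42 and 1.18 RPKM at 3 weeks, without overlap. Hist1h2ac rose by a log2 fold change of 2.30 ± 0.33 (SE; edgeR adjusted p = 0.0013), with 95.1% unique reads. In the pair of Hist1h2ap and Hist1h2br (235 bases apart), Hist1h2ap was lower, while Hist1h2br had too few reads to be tested. In the pair of Hist1h2ao and Hist1h2bq (267 bases apart), Hist1h2bq was higher and Hist1h2ao was not tested.

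The 250 bases upstream of Hist1h2ac, toward Hist1h2bc, and those upstream of Hist1h2ap are shown because these genes changed in opposite directions. Both were taken from RefSeq (GRCm38.p6), whose starts differ from those of the gene tables. The first window therefore overlaps the first bases of Hist1h2bc, and the second ends inside the listed transcript of Hist1h2ap. They are printed 5′ to 3′ on the strand of the named gene. Capitals mark CCAAT on either strand (ATTGG on the printed one) and TATAAA on the printed strand.
Hist1h2ac (chr13:23683960-23684209, minus strand): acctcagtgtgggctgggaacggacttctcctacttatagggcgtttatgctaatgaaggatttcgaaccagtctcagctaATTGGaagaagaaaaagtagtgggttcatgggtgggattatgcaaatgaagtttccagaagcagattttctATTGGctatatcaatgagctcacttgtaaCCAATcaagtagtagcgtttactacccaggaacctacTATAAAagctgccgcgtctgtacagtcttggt
Hist1h2ap (chr13:21833476-21833725, minus strand): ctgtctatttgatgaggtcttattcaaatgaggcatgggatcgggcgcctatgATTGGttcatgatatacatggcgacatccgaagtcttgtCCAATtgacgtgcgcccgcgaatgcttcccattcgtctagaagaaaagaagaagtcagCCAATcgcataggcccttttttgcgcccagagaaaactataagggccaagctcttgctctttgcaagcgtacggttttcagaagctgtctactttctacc
Each window held 3 CCAAT motifs, the letters that the factor NF-Y is known to bind, and TATAAA was found in the window of Hist1h2ac only. Windows of this kind were available for 62 members. CCAAT occurred in 82.3% of them against 33.8% of all 32851 RefSeq promoters, and TATAAA in 38.7% against 7.59%. Of the 16 members called higher with a window, 13 held CCAAT and 7 TATAAA, and of the 4 called lower, 4 held CCAAT and 1 TATAAA. Matches of these letters are a description of the windows and were not tested against the change.

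Both other tested H2B genes were higher at 3 weeks, though Hist1h2be had few reads at 1 week and passed the filter through 3 weeks. Hist1h2bq (6 exons) gave 1.43, 0.891, 2.07 and 1.83 RPKM at 1 week. It gave 9.45, 9.15, 9.34 and 11.8 RPKM at 3 weeks, a log2 fold change of 2.84 ± 0.26 (SE; edgeR adjusted p = 0.000267). Its neighbour Hist1h2br holds 96.9% of its windows, and only 0.913% of its reads were unique. Counted together, Hist1h2bq and Hist1h2br received 55, 68, 60 and 65 reads at 1 week and 359, 303, 314 and 388 reads at 3 weeks. Hist1h2be, spread over 5 exons and 1 of the weakest tested members, rose from 0.0935 ± 0.0644 to 0.819 ± 0.316 RPKM (SD, n = 4 each), a log2 fold change of 3.28 ± 0.57 (edgeR adjusted p = 0.00289). Of its reads, 89.8% were unique.

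Of the H2A genes called higher, Hist1h2ab showed the largest log2 fold change. It received 6, 4, 4 and 4 reads at 1 week. At 3 weeks it received 71, 53, 46 and 17 reads, so that replicate 4 was lowest but still above all samples at 1 week. The log2 fold change was 3.58 ± 0.44 (SE; edgeR adjusted p = 0.00067), and 3.61 with the 63.9% of reads that were unique. Hist1h2ab thus differed in sign from Hist1h2ap, Hist1h2ah, Hist1h2ai and Hist1h2an in the same class, although 237 of its 59-base windows also lie in Hist1h2ai. However, Hist1h2ab passed the filter through 3 weeks, and Hist1h2ai and Hist1h2an through 1 week, so their signs were set by the filter.

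In the Hist2 cluster, Hist2h2aa1 and Hist2h2aa2 are H2A genes all of whose windows also lie in another gene, and none of their reads was unique. Their reads added up to 171, 95, 129 and 118 at 1 week and to 357, 372, 299 and 332 at 3 weeks. In RPM these sums were 9.25, 4.74, 9.28 and 6.94 against 19.7, 23.3, 18.8 and 23.6, without overlap. Taken singly, Hist2h2aa2 rose by a log2 fold change of 1.88 ± 0.33 (edgeR adjusted p = 0.0031) and Hist2h2aa1 by 1.30 ± 0.37 (edgeR adjusted p = 0.0251). The call for Hist2h2aa1 was lost without replicate 1 or 3 at 1 week and without replicate 1 or 2 at 3 weeks, and also with the preparation block (edgeR adjusted p = 0.0657) and the replicate block (0.0675), with 0.0710 as the highest over the alternatives. Predicted genes overlap both, and among these Gm20634, which shares all windows of Hist2h2aa2, received 22 to 34 reads at 1 week and 215 to 261 at 3 weeks. Hist2h2ac, an H2A gene with 70.4% unique reads, was weak, with 7, 6, 11 and 11 reads at 1 week and 16, 22, 19 and 23 at 3 weeks. It passed the filter through 3 weeks, so the filter favoured a rise. It rose by a log2 fold change of 1.43 ± 0.38 (edgeR adjusted p = 0.0178), a call that was lost without replicate 1 at 1 week and with the preparation block (edgeR adjusted p = 0.0819). Its divergent partner Hist2h2be, an H2B gene, received 2 to 6 reads at 1 week and 3 to 12 at 3 weeks and was not tested.

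Hist3h2a (chr11:58954685-58956830), the H2A gene of the Hist3 cluster, had the smallest change among the members called higher. Its RPKM values were 3.35, 3.19, 3.21 and 3.86 at 1 week. The values at 3 weeks were 5.93, 6.63, 4.79 and 4.66. Although small, the difference was larger than the spread of the samples, with a log2 fold change of 0.85 ± 0.16 (SE; edgeR adjusted p = 0.00449). The call was lost with the preparation block (0.79, edgeR adjusted p = 0.0570). None of its reads was counted as unique. Trim17, annotated on the same strand, holds 31.2% of its windows and received at most 5 reads in a sample.

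The H3 genes were weakly expressed and unequal. Hist1h3b received 13, 0, 28 and 0 reads at 1 week. At 3 weeks it received 222, 207, 159 and 36 reads, again lowest in replicate 4. It passed the filter through 3 weeks, so the filter favoured a rise. The log2 fold change of Hist1h3b was 4.04 ± 1.04 (SE; edgeR adjusted p = 0.0169), the largest rise among the tested members in this fit but with the largest SE among the members called higher. Leaving out 1 library gave 3.59 to 5.44, the highest without replicate 3 at 1 week, and unique reads gave 5.04, so the size is uncertain. The call was lost without replicate 1 at 1 week (edgeR adjusted p = 0.0509), and adjusted p was 0.00305 to 0.0509 over the alternatives. Hist1h3h, which shares 248 windows with Hist1h3b, received 6, 18, 7 and 26 reads at 1 week and 0, 0, 0 and 7 at 3 weeks, and at 1 week its reads were most numerous in the replicates in which Hist1h3b had none. Hist2h3c2 rose from 0.560 ± 0.395 to 3.44 ± 0.651 RPKM (SD, n = 4 each), a log2 fold change of 2.81 ± 0.50 (edgeR adjusted p = 0.00311). Like Hist1h3b, Hist2h3c2 passed the filter through 3 weeks. Of its reads, 39.6% were unique, and the log2 fold change with unique reads alone was 2.58. The predicted gene Gm20634, whose reads were also more numerous at 3 weeks, holds 63.2% of its windows.

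Both members without a call were H3 genes. Hist1h3c gave 1.67, 1.85, 0.995 and 1.35 RPKM at 1 week and 1.96, 1.74, 0.870 and 0.648 RPKM at 3 weeks. The groups overlapped, with a log2 fold change of -0.01 ± 0.40 (SE; edgeR adjusted p = 0.985). Hist1h3i, with 6.35% unique reads, gave 3.19, 0.945, 3.39 and 1.24 RPKM at 1 week and 2.61, 1.63, 4.89 and 0 RPKM at 3 weeks. Its log2 fold change was 0.29 ± 0.84 (SE; edgeR adjusted p = 0.822), and the SE leaves room for a change in either direction.

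All 3 tested H4 genes were called higher at 3 weeks, as were 15.7% of all genes tested. Hist1h4h and Hist1h4c had few reads at 1 week and passed the filter through 3 weeks, so they had to be higher. Over all 13 H4 genes, mean RPKM was higher at 3 weeks in 10 and lower in 3. Among the latter, the untested Hist1h4b received 14, 15, 6 and 6 reads at 1 week and 0 in each sample at 3 weeks. Hist1h4i (chr13:22040636-22041362), the most abundant, gave 2.82, 1.20, 2.97 and 2.42 RPKM at 1 week. It gave 3.91, 5.61, 6.53 and 5.81 RPKM at 3 weeks. The groups did not overlap, and the log2 fold change was 1.39 ± 0.33 (SE; edgeR adjusted p = 0.0123), or 1.41 with unique reads. The call was lost with the preparation block (0.96, edgeR adjusted p = 0.0821). Hist1h4h received 1, 4, 2 and 6 reads at 1 week and 30, 25, 28 and 20 at 3 weeks, a log2 fold change of 3.21 ± 0.44 (edgeR adjusted p = 0.000938). Hist1h4c received 0, 4, 5 and 4 reads and then 18, 12, 13 and 9 reads, a log2 fold change of 2.20 ± 0.60 (edgeR adjusted p = 0.0209). The call of Hist1h4c was lost without replicate 2 or 4 at 1 week, without replicate 1 at 3 weeks, with the preparation block (edgeR adjusted p = 0.107) and with the replicate block (0.0578).

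**Figure D2:**
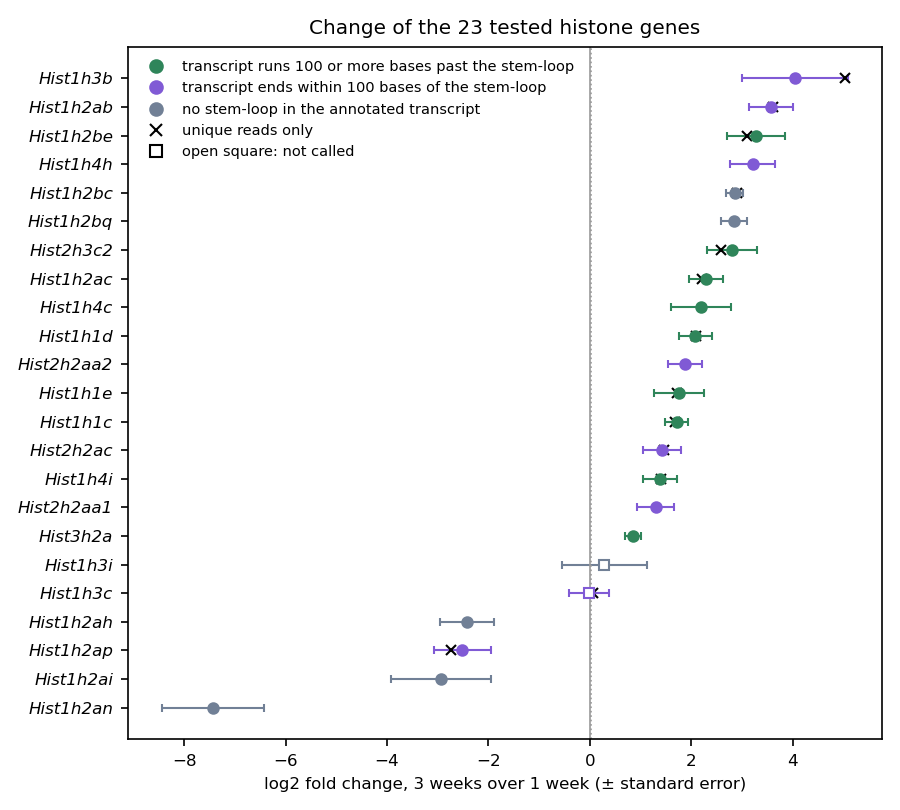
log2 fold change (3 weeks over 1 week) with its standard error for the 23 tested histone genes, with crosses for the 13 genes that could be tested with unique reads alone and colours for the position of the annotated transcript end relative to the stem-loop; the dotted line is the median of all tested genes. The crosses lie close to the values from all reads except for Hist1h3b, and the value of Hist1h2an rests on 0 reads at 3 weeks and is no estimate of size.

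With unique reads alone, 13 members could be tested, of which 11 were higher and 1, Hist1h2ap, was lower. In 12 of the 13 the sign was that of the test on all reads, and the exception was Hist1h3c, which was close to 0 in both. The 44 members that were not tested reached at most 39 reads in a sample, 1 of them (Hist1h2bf) received no read and 7 others fewer than 10 over all 8 samples. Mean RPKM was higher at 3 weeks in 26 and lower in 17 of the 44. Together the untested members received 8.75 ± 1.10 RPM at 1 week and 9.11 ± 0.78 at 3 weeks (SD, n = 4 each), a difference smaller than either SD.

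Summed over each class, the RPM values of H1 genes were 38.5, 35.5, 59.7 and 54.3 at 1 week, and at 3 weeks they had reached 168, 142, 82.7 and 169. Those of H2B genes were 20.0, 16.2, 24.8 and 22.6 and then 116, 120.0, 124 and 136. Both classes were higher in all samples at 3 weeks, H1 by 2.99-fold and H2B by 5.93-fold in the mean. H3 sums were 4.92, 4.09, 7.63 and 4.82 at 1 week, and later 20.1, 20.3, 17.8 and 7.80. H4 sums were 4.49, 3.84, 6.04 and 4.23 and then 7.67, 8.33, 10.9 and 7.59. The groups did not overlap in either class, and the mean ratios were 3.08 for H3 and 1.86 for H4. H2A sums were 132, 65.5, 201 and 225 at 1 week, followed by 59.9, 76.1, 70.9 and 47.8, so that here the sums were 2.45-fold higher at 1 week with 1 sample at 1 week, replicate 2, inside the range of 3 weeks. Summed over all 67 members, the values were 234 ± 88.0 RPM at 1 week and 353 ± 31.3 at 3 weeks (SD, n = 4 each), a ratio of 1.51 with overlapping groups.

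**Figure D3:**
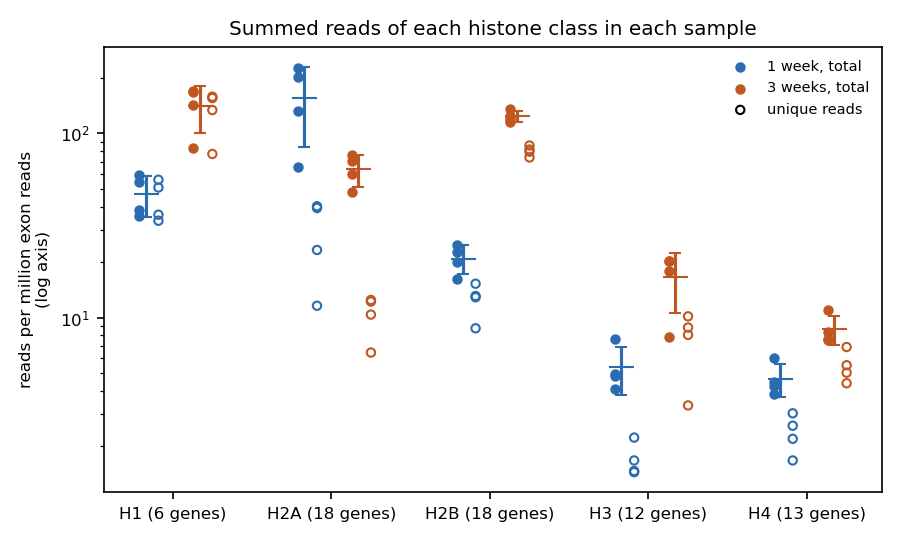
Summed RPM (log axis) of each histone class in the 4 samples at 1 week (blue) and 3 weeks (orange), with filled circles for all reads, open circles for unique reads and bars for mean and SD of all reads. H2A is the class with lower sums at 3 weeks, and the other 4 classes lie higher at 3 weeks without overlap of the filled circles.

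Members differed in how far their annotated transcript runs past the stem-loop. By mean RPKM, without regard to the filter on low counts, 44 of the 67 members were higher and 22 lower at 3 weeks. Of the 21 members whose transcript runs 100 or more bases past it, 18 were higher and 3 lower. Both counts include members with very few reads. Among the higher ones, Hist3h2ba had 1 read at 1 week and 2 at 3 weeks and Hist1h1t 0 and 4. Among the lower ones, Hist2h3c1 had 3 and 0. Of the 21 whose transcript ends nearer, 11 were higher and 9 lower, and of the 25 without a stem-loop 15 and 10. Among the members tested, the longer transcripts were Hist1h1c, Hist1h1d, Hist1h1e, Hist1h2ac, Hist1h2be, Hist3h2a, Hist2h3c2, Hist1h4c and Hist1h4i. All 9 were called higher, against 15.7% of all genes tested. However, several of them (such as Hist1h4c, Hist1h2be and Hist2h3c2) had few reads at 1 week and passed the filter through 3 weeks. Of the 8 tested members whose transcript ends nearer, 6 were higher, 1 (Hist1h2ap) lower and 1 (Hist1h3c) not called. Among those higher, Hist1h2ab, Hist1h3b, Hist1h4h and Hist2h2ac passed the filter through 3 weeks. Of the 6 without a stem-loop in the annotation, 2 (Hist1h2bc and Hist1h2bq) were higher, 3 (Hist1h2ah, Hist1h2ai and Hist1h2an) lower and 1 (Hist1h3i) not called. Annotated transcripts of Hist1h2bc and Hist1h2bq run up to 742 and 1608 bases past the stop codon. Those of the 3 lower genes and of Hist1h3i run 0 to 2 bases past it. The lower genes were thus annotated to end 3 bases behind the stem-loop (Hist1h2ap) or within 2 bases of the stop codon (Hist1h2ah, Hist1h2ai and Hist1h2an). Of these, Hist1h2ai and Hist1h2an passed the filter through 1 week and had to be lower. The 6 higher members whose transcript ends nearer end 11 to 57 bases behind the stem-loop. No test of this arrangement was made. Reads along the transcripts were not analysed here, so the end of the captured RNA is not known.

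**Figure D4:**
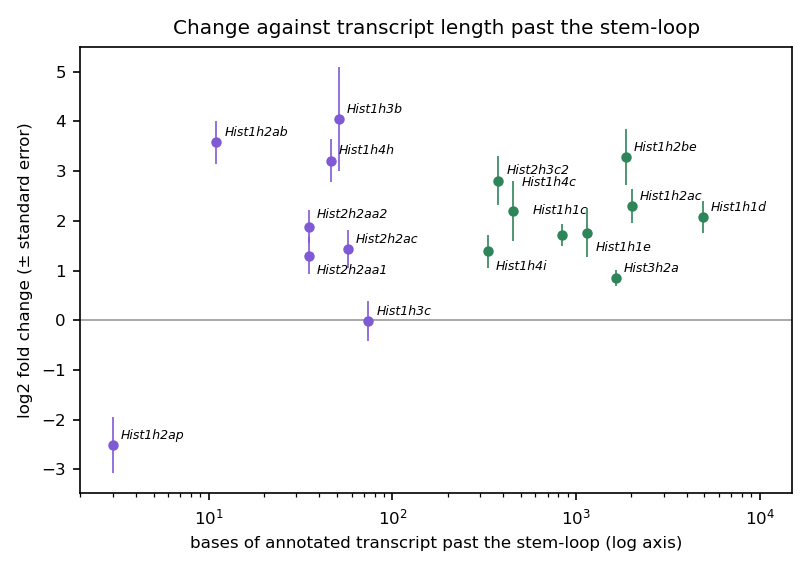
log2 fold change with its standard error against the bases of annotated transcript past the stem-loop (log axis) for the 17 tested histone genes with a stem-loop. The 9 genes with 330 to 4884 bases past it (green) all lie above 0, and the 8 genes with 3 to 74 bases (violet) run from Hist1h2ap to Hist1h3b.

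Genes for the synthesis of histone mRNA were looked at beside the members. Of 15 listed genes of histone mRNA processing, 14 were tested, none was higher and 6 were lower, with a median log2 fold change of -0.53. Slbp, which encodes the stem-loop binding protein, fell from 5.99 ± 1.19 to 2.64 ± 0.503 RPKM (SD, n = 4 each; log2 fold change -1.003 ± 0.22, edgeR adjusted p = 0.00802). Cpsf2, a subunit of the cleavage complex, fell with a log2 fold change of -0.81 ± 0.10 (edgeR adjusted p = 0.000674). Npat, the coactivator of histone gene transcription, had a log2 fold change of -0.19 ± 0.22 (edgeR adjusted p = 0.541). The highest values of the list were those of Lsm10, Sympk and Mif4gd, at 0.11, 0.08 and -0.01, none of them called. The third lowest value, -0.81 for Mblac1, which encodes a histone pre-mRNA nuclease, was not called (edgeR adjusted p = 0.0747).

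Histone genes listed here as replication-independent, most of which have introns and poly(A) tails, did not follow the 17 members that were higher. Of 11 such genes none was higher and 7 were lower, with a median log2 fold change of -0.91. H2afz, which encodes the variant H2A.Z, fell from 234 ± 12.1 to 85.3 ± 26.7 RPKM (SD, n = 4 each; log2 fold change -1.28 ± 0.25, edgeR adjusted p = 0.00545). H2afx, the gene for the variant that is phosphorylated at DNA breaks, fell with a log2 fold change of -0.95 ± 0.26 (edgeR adjusted p = 0.0209). That call was lost without replicate 3 or 4 at 1 week, without replicate 1 at 3 weeks (edgeR adjusted p up to 0.0589) and with the replicate block (0.0660), but not with the preparation block (0.0233). H1f0, a linker histone of resting cells, fell with a value of -1.21 ± 0.22 (edgeR adjusted p = 0.00339). The H1 gene Hist1h1c and H1f0 therefore went in opposite directions. The lowest values were those of Cenpa, the centromeric H3 variant, at -2.71 ± 0.32, and H1fx at -2.61 ± 0.46. H3f3a and H3f3b encode the same replacement histone, of which H3f3b fell with a log2 fold change of -0.47 ± 0.11 (edgeR adjusted p = 0.0136; 0.0580 with the preparation block and 0.0765 with the replicate block, so that the call was lost in both) and H3f3a had a value of 0.33 ± 0.21 (edgeR adjusted p = 0.262). Next to H3f3a, the highest values were -0.02 for H2afv, a second H2A.Z gene, and -0.02 for H2afj, neither of them called.

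Of 21 histone chaperone genes, 12 were lower and none higher (median log2 fold change -0.58), with the lowest values for Asf1b (-2.29 ± 0.44), Chaf1b (-2.13 ± 0.25) and Chaf1a (-2.005 ± 0.34), which deposit H3 and H4 on new DNA. The highest values, for Atrx, Cabin1 and Daxx, were 0.64, -0.09 and -0.13, and none was called. Of 23 DNA replication genes, 21 were lower and none higher, with a median of -2.50. The helicase subunit genes Mcm6 (-3.37 ± 0.34) and Mcm5 (-3.07 ± 0.42) and the thymidine kinase gene Tk1 (-3.32 ± 0.32) had the lowest values, and E2f1 (-0.11 ± 0.17), Ccne1 (-0.30 ± 0.17) and Gins2 (-0.57 ± 0.14) the highest, of which Gins2 was called lower (edgeR adjusted p = 0.0158, but 0.0713 with the replicate block, and not called with unique reads).

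**Figure D5:**
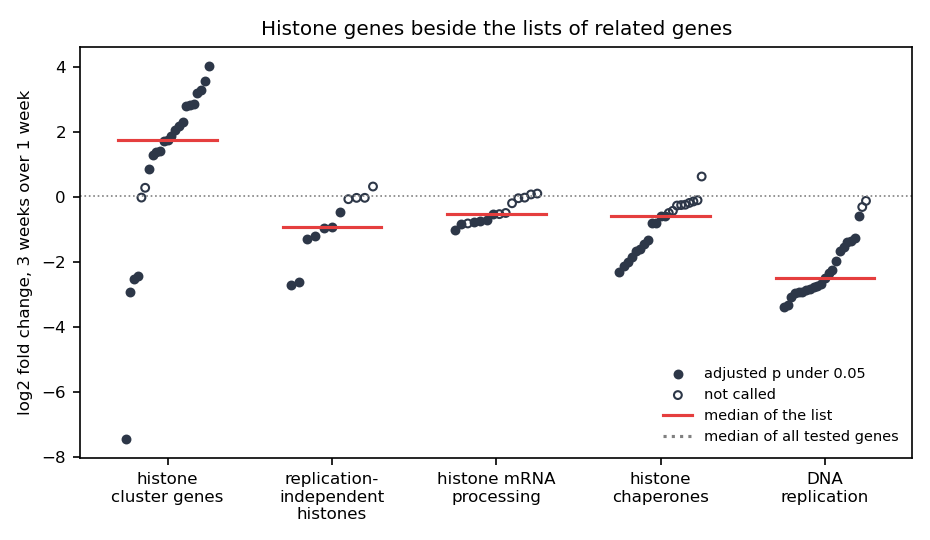
log2 fold change (3 weeks over 1 week) of the 23 tested histone cluster genes and of the tested genes in 4 lists of related genes, with called genes as filled and others as open circles, the list median as a red line and the median of all tested genes dotted. Most cluster genes lie above 0, whereas no gene of the 4 lists is called above 0, and the lowest cluster gene is Hist1h2an, with 0 reads at 3 weeks.

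Summed RPKM of the 23 DNA replication genes were 339.7, 289, 520.0 and 585 in replicates 1 to 4 at 1 week. At 3 weeks the sums were 104, 117, 106 and 68.2. The lowest sum at 1 week was in replicate 2 and the highest in replicate 4, and the lowest at 3 weeks in replicate 4, which were also the samples with the lowest, the highest and the lowest RPKM of Hist1h2ap in their groups. At 1 week Hist1h2bc and Hist1h1c were likewise lowest in replicate 2 but highest in replicate 3. At 3 weeks the sample with the lowest replication sum had the highest value of Hist1h2bc, 83.4 RPKM, and the lowest value of Hist1h1c was in replicate 3. These orders are descriptions of 4 samples in each group.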

How the data were processed

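RNA of the 8 samples was analysed from gene tables, 1 per sample, and samples were grouped by the weeks of culture in the labels. The authors made poly(A) libraries from 140 ng of total RNA with 12 PCR cycles, sequenced single reads of 59 bases, trimmed adapters and aligned them to GRCm38 with the CLC Genomics Workbench at default settings. The deposited counts are whole total and unique exon reads per gene, not normalized. The deposited RPKM values equal total exon reads divided by exon length and mapped reads. The annotation release and the use of strand in counting are not given in the sources used here, and 10 of the 23 tested members overlap a gene on the opposite strand, so that reads of both cannot be told apart. All 67 members had the coordinates of GENCODE M21.

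The test across all genes was that of edgeR 4.0.16 (R 4.3.3), on total exon reads (filterByExpr, TMM, quasi-likelihood test, all 8 samples, no pairing) with Benjamini-Hochberg adjustment over all 12590 genes tested and a threshold of 0.05. On data simulated with the depths of this comparison and the means and spread at 1 week, 158 of 200 genes changed by known folds were recovered. Samples at 3 weeks mostly differed more from each other, which the simulation leaves out. Alternatives were DESeq2 1.42.0, upper-quartile scaling, no filter, a mean of at least 1 CPM, unique reads, limma 3.58.1 on log2(RPKM + 0.1) and log2(RPKM + 1), blocks and leaving out each replicate. Counting alone limits precision at the member totals of 2505 to 6736 reads per sample. The members and lists were chosen with earlier results of these data known. Named were the 10 members with the highest mean RPKM, the 8 lowest and 8 highest log2 fold changes, the most abundant member of each class, members outside the Hist1 cluster with at least 10 reads in a sample, and of each related list the 3 lowest and 3 highest values with Slbp, Npat, H2afx, H2afz, H3f3a, H3f3b and H1f0. Hist1h1d, Hist1h1e and Hist1h4c complete the tested members, and other genes were named after their values were seen because they share reads with a member or had too few reads to be tested. According to the study the same batches of KCs were used at both times, and preparations were paired by the number in the deposited names; deviations from the group means of samples with 1 preparation correlated at -0.227, 0.2 and 0.249. No sample pair of a group agreed within counting noise, and gene symbols were used as in the tables.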

Additional observations from a re-analysis of the deposited data

Results flagged for a closer look

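Of 58 groups of 4 samples that were checked, over the tested members and the class sums, 3 held a sample far from the others by Dixon's criterion, which chance gives in about 1 in 20 groups. Hist1h2ai had 2.18433 RPKM in replicate 1 at 3 weeks and 0 in the other samples of that group. Hist1h2bq had 11.7908 RPKM in replicate 4 at 3 weeks, against 9.15 to 9.45 in the others. Summed over all members, replicate 3 at 3 weeks received 306.027 reads per 1000000 exon reads, against 366 to 372 in the others. Hist1h1c was lowest in the same sample, at 48.2 RPKM.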

How the results depend on the processing

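Members called higher numbered 17 in DESeq2, with upper-quartile scaling and in both limma fits, and members called lower 4. With no filter on low counts 66 members were tested, 19 were higher and 7 lower. With unique exon reads 13 were tested, 11 were higher and 1 lower. A mean of at least 1 CPM left 17 members, of which 14 were higher and 3 lower. Leaving out 1 replicate in turn gave 13 to 17 higher members, 3 to 4 lower members and 3015 to 4861 genes called in all.

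Correlations of the deviations of samples with the same replicate number were -0.227, -0.146, -0.146 and 0.249 for numbers 1 to 4. The values of numbers 1 and 4 were also those of shared preparations. The replicate block therefore paired part of the samples as the preparation block did. A fit with the replicate number as a block called 15 members higher, 4 lower and 2867 genes in all. The fit blocked on the 3 shared preparations, with 6 samples, called 12 members higher, 3 lower and 3109 genes in all, and ended the calls of Hist1h2ai, Hist1h4c, Hist1h4i, Hist2h2aa1, Hist2h2ac and Hist3h2a but of no other member. The replicate block ended those of Hist1h4c and Hist2h2aa1. Of the related lists, the preparation block called 5, 6, 13 and 21 genes lower, in place of 6, 7, 12 and 21 for mRNA processing, replication-independent histones, chaperones and DNA replication.

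Of the 21 members called, 13 kept their call in every alternative that could test them, and Hist1h1e, Hist1h2ai, Hist1h3b, Hist1h4c, Hist1h4i, Hist2h2aa1, Hist2h2ac and Hist3h2a lost it in at least 1, Hist1h1e and Hist1h3b only when a replicate was left out. The sign turned only in the 2 members without a call. Hist1h3i had log2 fold changes of -0.6964 and -0.1306 in limma with pseudocounts of 0.1 and 1, -0.0034 with the replicate block and -1.0452 with the preparation block, and -0.4857 to 0.6972 when 1 replicate was left out. Hist1h3c had 0.0572 with unique reads, 0.1243 with the preparation block and -0.2621 to 0.2130 when 1 replicate was left out. The cause was not tested. Shared reads limit the values of single H2A, H2B and H3 genes, and depth limits the 44 untested members.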
